A study of Mus musculus with 15 samples.

Results

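The Id inhibitors of DNA binding and their E protein partners were followed in C2C12 cells, a mouse myoblast line, after transcription had been blocked. The 7 genes were Id1, Id2, Id3 and Id4, which encode the inhibitors, and Tcf3, Tcf4 and Tcf12, which encode the E proteins. They were 7 of the 19452 genes to which the platform annotation gave a probe set of their own, and each was read by 1 probe set, so no choice among probe sets arose. Proliferating C2C12 cells carrying the vector labelled LKO-1 were grown with puromycin, kept under 70% confluency and incubated with 8 µg/mL actinomycin D, which stops transcription, for 30 min. RNA was then collected directly (0 min) and 10, 50, 110 or 230 min later, in 3 replicates, giving 15 arrays. Every array came from drug-treated cells, so the 0 min arrays are the reference and no untreated cells enter any comparison. A transcript with a very short half-life had already lost part of its level by the 0 min sample.

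Id proteins and E proteins belong to the helix-loop-helix family. E proteins are broadly expressed and bind the E-box, CANNTG, as dimers with each other or with tissue-restricted factors such as MyoD. Id proteins have the dimerisation domain but lack the basic region that contacts DNA, so an E protein held by an Id protein cannot bind the E-box. In myoblasts Id expression is kept up by serum and BMP signalling, and a fall in Id frees E proteins to pair with MyoD when differentiation begins. After a block of transcription, the rate at which each mRNA is lost sets how long inhibitor and partner transcripts remain side by side.

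The upstream sequences of a rapidly lost inhibitor pair, Id2 and Id3, and of a slowly lost partner, Tcf3, are shown so that the E-box, through which these proteins act, can be looked for in genes lost at different rates. Each is the 250 bases before the annotated start in the RefSeq promoter table for GRCm38.p6, written 5′ to 3′ on the gene's strand, at chr12:25096093-25096342 on the minus strand for Id2, chr4:136143572-136143821 on the plus strand for Id3 and chr10:80433636-80433885 on the minus strand for Tcf3. Capitals mark matches, on either strand, to the E-box CANNTG, to GGCGCC, a GC-rich sequence found in BMP-responsive Id regions, and to TGACGT, the core of the cAMP response element.
Id2: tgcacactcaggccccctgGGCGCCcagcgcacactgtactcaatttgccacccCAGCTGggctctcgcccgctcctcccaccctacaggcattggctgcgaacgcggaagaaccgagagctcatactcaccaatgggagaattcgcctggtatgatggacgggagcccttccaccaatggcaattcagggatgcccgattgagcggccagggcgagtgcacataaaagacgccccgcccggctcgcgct
Id3: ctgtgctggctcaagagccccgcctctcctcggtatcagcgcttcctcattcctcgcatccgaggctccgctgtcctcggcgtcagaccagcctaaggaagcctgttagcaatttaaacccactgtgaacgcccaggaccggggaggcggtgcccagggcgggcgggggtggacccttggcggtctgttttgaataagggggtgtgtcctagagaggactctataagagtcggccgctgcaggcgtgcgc
Tcf3: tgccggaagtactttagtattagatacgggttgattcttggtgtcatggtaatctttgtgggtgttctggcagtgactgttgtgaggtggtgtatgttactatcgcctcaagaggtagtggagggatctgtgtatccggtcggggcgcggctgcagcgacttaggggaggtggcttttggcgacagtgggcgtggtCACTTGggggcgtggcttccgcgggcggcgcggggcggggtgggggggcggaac
The Id2 sequence held 1 E-box, CAGCTG, starting 196 bases before the start and 1 GGCGCC starting 231 bases before it. The Tcf3 sequence held 1 E-box, CACTTG, starting 54 bases before the start, and no match was found in that of Id3. No marked match overlapped another. Over the 32851 promoters of the table, 66.2% held CANNTG, 9.59% held GGCGCC and 6.47% held TGACGT in the same length. A match describes letters in this window only, and the arrays measured loss of transcripts, not binding.

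Values are ratios, each probe set divided by the 5th percentile of its array, so that 1.00 is close to the lowest signals of an array. The array medians lay between 2.42 and 2.74 at 0 min and between 1.44 and 1.72 at 230 min, and the 75th percentiles between 7.80 and 9.81 at 0 min and between 2.89 and 4.63 at 230 min. The 110 min array of replicate 1, with a 75th percentile of 3.90, and the 230 min array of replicate 2, with 2.89, had the lowest 75th percentiles of their times. A probe set was called expressed where it exceeded the array median in at least 2 of 3 arrays at 0 min, which held for 12544 of 25175 probe sets. All 6 myoblast markers measured were expressed, as were both proliferation markers. The myoblast markers ran from Pax7 at 2.99, little above the array medians, and Myf5 at 5.46 to Myod1 at 27.3 and desmin at 42.3. Of the 6 myotube markers, 5 were expressed, at means from 2.79 for Myog to 12.02 for Acta1, while 0 of 3 adipocyte and 0 of 2 endothelial markers were. Of the 2 immune markers, Cd68 was expressed, at 2.90. In such bulk samples fewer cells of a type and less RNA per cell cannot be told apart. Nothing in the labels says whether the replicates were separate cultures, so p values describe only these 3 time courses and are not extended to other cultures. They rest on scatter about fitted values or on reordering of times within a course, not on differences in level between courses.

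Transcripts of Id1, Id2 and Id3 were lost within the first hours, whereas those of the E proteins Tcf3, Tcf4 and Tcf12 were lost more slowly. At 230 min the 3 Id transcripts stood between 7.72% and 20.9% of their own 0 min level over the 9 values, and the 3 E protein transcripts between 35.9% and 70.3%, with no overlap. At 50 min the ranges were 31.8% to 78.0% and 76.6% to 140%, and overlapped only where the highest Id2 value exceeded the lowest value of Tcf4 and of Tcf12. Id4 was close to the array median throughout. At 0 min the signals of Id1, Id2 and Id3 lay at the 83.1, 91.1 and 82.0 percentile of all probe sets, those of Tcf3, Tcf4 and Tcf12 at the 88.3, 79.6 and 86.9 percentile, and that of Id4 at the 48.2 percentile.

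**Figure D1:**
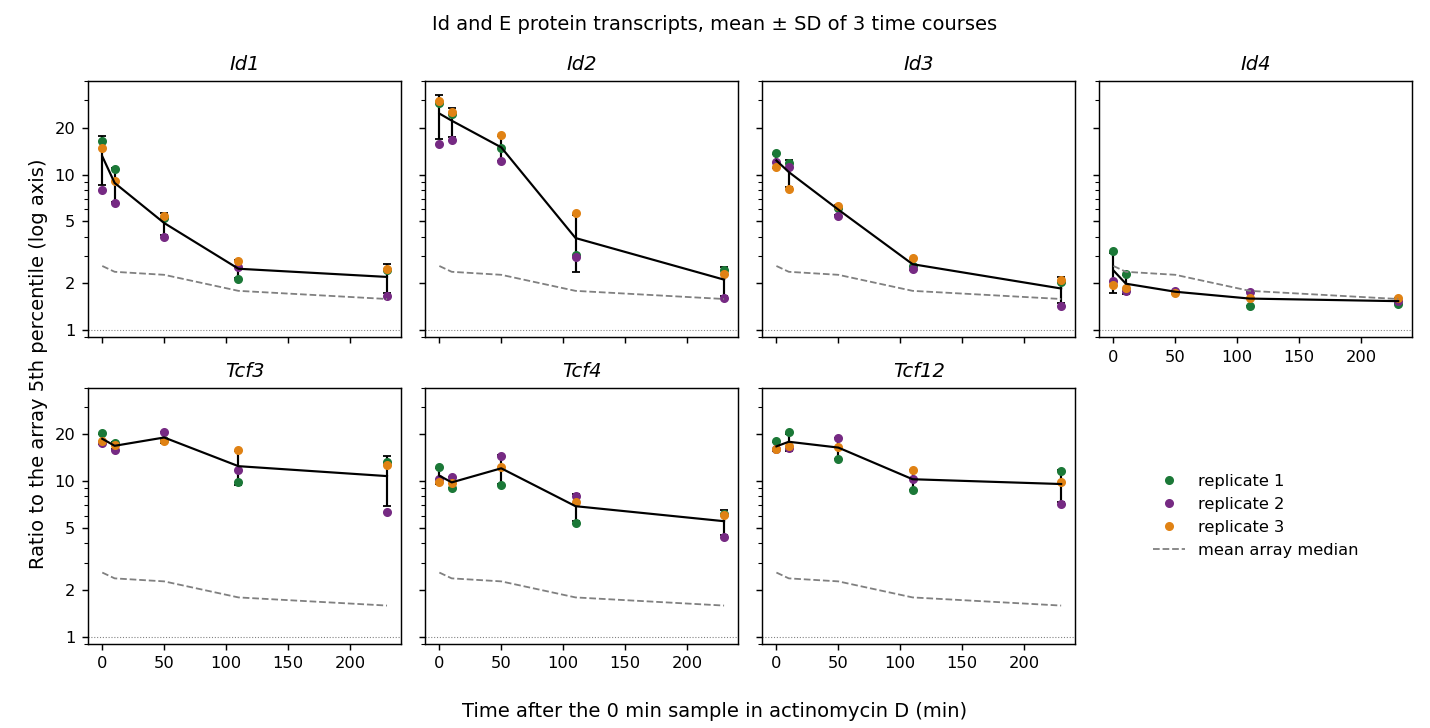
Level of each of the 7 transcripts as a ratio to the 5th percentile of its array (log axis) against time in min, with 1 point per replicate, lines and bars for the mean ± SD of 3 and a dashed line for the mean array median. Id1, Id2 and Id3 approached the array median by 230 min, Id4 lay near it throughout, and the E protein transcripts stayed above it on all arrays.

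Id1, the inhibitor best known as a BMP target, read 16.6, 8.00 and 14.8 at 0 min in replicates 1, 2 and 3, then 10.9, 6.55 and 9.12 at 10 min, 5.27, 3.97 and 5.42 at 50 min, 2.12, 2.56 and 2.77 at 110 min, and 2.44, 1.67 and 2.49 at 230 min. The 0 min and 50 min values did not overlap, and replicate 2 began lower than the others. The steepest loss of Id1 came between 0 and 10 min, at -3.19 ± 1.30 log2 per hr (SD, n = 3), and after 110 min the rate was -0.09 ± 0.21 log2 per hr. Between 0 and 10 min the median over expressed probe sets moved at -0.61 log2 per hr.

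Id2, an inhibitor that also binds the retinoblastoma protein, read 28.7, 15.8 and 29.7 at 0 min, 24.7, 16.7 and 25.3 at 10 min, 14.8, 12.3 and 17.9 at 50 min, 3.06, 2.97 and 5.71 at 110 min, and 2.44, 1.61 and 2.29 at 230 min. The lowest 0 min value lay below the highest 50 min value, but all 110 min values lay below all earlier ones. Loss of Id2 was fastest between 50 and 110 min in all 3 time courses, at -1.99 ± 0.32 log2 per hr, compared with -0.84 ± 0.23 between 10 and 50 min. The median over expressed probe sets moved at -0.02 log2 per hr between 10 and 50 min and at -0.60 log2 per hr between 50 and 110 min.

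Id3, which like Id1 is induced early by serum, read 13.7, 12.04 and 11.2 at 0 min, 11.95, 11.1 and 8.10 at 10 min, 6.10, 5.45 and 6.33 at 50 min, 2.59, 2.47 and 2.91 at 110 min, and 2.03, 1.44 and 2.09 at 230 min. The values at 0, 50, 110 and 230 min formed 4 groups that did not overlap. Between 10 and 50 min and between 50 and 110 min the rates of Id3 were alike, at -1.18 ± 0.56 and -1.17 ± 0.06 log2 per hr. The median over expressed probe sets moved at -0.02 and -0.60 log2 per hr in these intervals, so relative to it the rates were not alike.

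Id4, the member of the family with the lowest signal in these cells, read 3.22, 2.08 and 1.96 at 0 min, 2.30, 1.79 and 1.88 at 10 min, 1.77, 1.79 and 1.74 at 50 min, 1.43, 1.76 and 1.60 at 110 min, and 1.47, 1.54 and 1.60 at 230 min. It exceeded the array median at 0 min only in replicate 1, and the difference between 0 and 230 min was largest in that replicate.

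Tcf3, which encodes E12 and E47, read 20.3, 17.7 and 18.2 at 0 min, 17.6, 15.9 and 17.2 at 10 min, 18.3, 20.9 and 18.2 at 50 min, 9.85, 11.8 and 15.8 at 110 min, and 13.2, 6.36 and 12.8 at 230 min. Its values at 0 and 50 min overlapped, and replicate 2 was lowest at 230 min, on the array whose 75th percentile was also lowest. Tcf4, an E protein gene with broad expression, read 12.3, 10.35 and 9.91 at 0 min, 9.06, 10.7 and 9.73 at 10 min, 9.43, 14.5 and 12.4 at 50 min, 5.35, 8.04 and 7.34 at 110 min, and 6.14, 4.36 and 6.10 at 230 min. Tcf12, which encodes HEB, read 18.1, 16.15 and 16.05 at 0 min, 20.6, 16.3 and 16.9 at 10 min, 13.9, 18.8 and 16.6 at 50 min, 8.76, 10.3 and 11.8 at 110 min, and 11.7, 7.15 and 9.94 at 230 min. For Tcf4 and Tcf12 too, the values at 0 and 50 min overlapped, and for each E protein gene all 230 min values lay below all 0 min values.

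The fit of a linear trend in time across all probe sets asked how fast each transcript was lost on the authors' scale. With limma, 7 of 7 members fell at an adjusted p below 0.05, against 75.8% of all 25175 probe sets, so the call itself did not set the members apart. The slope was -0.97 ± 0.08 log2 per hr for Id2 (SE, adjusted p = 7.6e-07), -0.72 ± 0.07 for Id3 (adjusted p = 1.8e-06) and -0.63 ± 0.09 for Id1 (adjusted p = 3.8e-05). Only 0.120%, 0.717% and 1.59% of expressed probe sets had a steeper slope than Id2, Id3 and Id1. The slopes of Tcf4, Tcf12 and Tcf3 were -0.27 ± 0.05, -0.26 ± 0.05 and -0.23 ± 0.05 log2 per hr (adjusted p = 0.00038, 0.00028 and 0.0012), near the median of -0.25 over expressed probe sets. A steeper slope than theirs was found for 40.8%, 47.4% and 55.4% of expressed probe sets. Id4 had a slope of -0.13 ± 0.04 (adjusted p = 0.0079), against a median of -0.14 over all probe sets.

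The calls on Id1, Id2 and Id3 held under every scaling tried, but those on the other members did not. With each array divided by its median, which moved the median slope of all probe sets from -0.14 to 0.04, the slopes of Tcf3, Tcf4 and Tcf12 were -0.05, -0.09 and -0.07 and passed no threshold, and that of Id4 was 0.05. With the 75th percentile, which moved that median to 0.17, all 4 were above 0, at 0.08, 0.04, 0.06 and 0.18, and Tcf3 (adjusted p = 0.025) and Id4 (adjusted p = 0.00042) passed the threshold as rises. The slopes of Id1, Id2 and Id3 relative to those of other transcripts on the same arrays do not depend on the scaling.

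**Figure D2:**
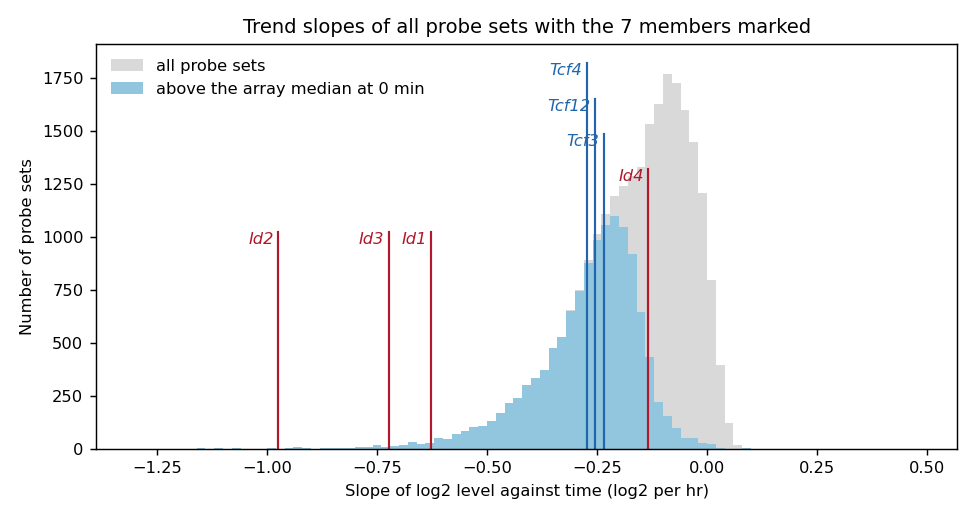
Histogram of the slope of log2 level against time (log2 per hr) for all 25175 probe sets (grey) and for the 12544 expressed ones (blue), with vertical lines at the slopes of the 7 members, red for Id genes and blue for E protein genes. Id1, Id2 and Id3 lay in the steep tail at -0.63, -0.97 and -0.72, and Tcf3, Tcf4 and Tcf12 near the middle of the expressed probe sets at -0.23 to -0.27. The slopes of Tcf3, Tcf4, Tcf12 and Id4 turn above 0 when arrays are divided by their 75th percentile, and that of Id4 also when they are divided by their median.

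Comparisons of each time with 0 min, which share the 0 min arrays, showed at which sampled time a call of each member first passed. At 10 min limma called 0 of 7 members, against 0% of all probe sets, and 1 member, Id1, had an unadjusted p below 0.05. With no probe set called, this does not show that the members were unchanged at 10 min. At 50 min 2 of 7 members fell, against 1.03% of all probe sets: Id1, with a log2 change of -1.37 (adjusted p = 0.0046), and Id3, with -1.05 (adjusted p = 0.0086). The change of Id2 at 50 min was -0.68 (adjusted p = 0.092), and those of Tcf3, Tcf4 and Tcf12 were 0.03, 0.14 and -0.04. At 110 min 7 of 7 fell, against 51.1% of all probe sets, and at 230 min 7 of 7, against 68.8%. These shares include probe sets that were not expressed. Shares over expressed ones alone were not taken at these times, so these 2 counts do not set the members apart. By 230 min the log2 changes were -2.53, -3.52 and -2.75 for Id1, Id2 and Id3 and -0.87, -0.98 and -0.83 for Tcf3, Tcf4 and Tcf12, beside a median of -0.91 over expressed probe sets. The changes of Tcf3, Tcf4, Tcf12 and Id4 at 230 min were above 0 when arrays were divided by their 75th percentile, where Id4 (limma, adjusted p = 0.0049) and Tcf12 (adjusted p = 0.024) passed as rises, and that of Id4 was above 0 when they were divided by their median. At 50 min Id1 passed without replicate 1 (limma, adjusted p = 0.028) but not without replicate 2 or replicate 3, with log2 changes of -1.23, -1.55 and -1.33. Id3 did not pass with any replicate left out, with changes of -0.98, -0.998 and -1.16. At 110 min 4 of 7 fell without replicate 1, when Id4, Tcf3 and Tcf4 no longer passed, and Tcf3 and Tcf4 did not pass without replicate 3 (limma, adjusted p = 0.060 and 0.061). At 230 min Tcf3 did not pass without replicate 2 (limma, adjusted p = 0.060).

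Whether inhibitor transcripts were lost faster than partner transcripts was tested within arrays, where the scaling cancels. The log2 ratio of each Id transcript to each E protein transcript was regressed on time in each time course, and times were permuted within each course, giving 1728000 arrangements for an exact two-sided test with a smallest possible p of 5.79e-07. Of the 12 pairs, 9 fell, which were the 9 pairs of Id1, Id2 or Id3 with an E protein. All 27 of their course slopes were below 0. The pairs share transcripts and arrays, so these counts are not independent repeats of the result. Id2 over Tcf12 fell by 0.72 log2 per hr (SD 0.10, n = 3, exact permutation test, adjusted p = 6.9e-06). Id2 over Tcf3 and over Tcf4 fell by 0.74 and 0.70 log2 per hr (exact permutation test, adjusted p = 1.9e-05 for each). For Id3 the slopes were -0.49, -0.45 and -0.47 over Tcf3, Tcf4 and Tcf12 (exact permutation test, adjusted p = 6.2e-05, 0.00069 and 6.9e-06). For Id1 they were -0.39, -0.35 and -0.37 (exact permutation test, adjusted p = 0.0058, 0.012 and 0.0050), with the shallowest slopes in replicate 2. The slopes of Id4 over Tcf3, Tcf4 and Tcf12 were 0.10, 0.14 and 0.12 (exact permutation test, adjusted p = 0.16, 0.056 and 0.057). These ratios were lower than at 0 min at 50 min in 3 of 3 time courses, with changes of -0.44 ± 0.27, -0.56 ± 0.13 and -0.38 ± 0.14 on the log2 scale (SD, n = 3), and differed in sign between time courses at 230 min. Leaving out replicate 1 ended the call of Id1 over Tcf3 (exact permutation test, adjusted p = 0.051) and over Tcf4 (adjusted p = 0.072), and leaving out replicate 3 that of Id1 over Tcf4 (adjusted p = 0.053).

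**Figure D3:**
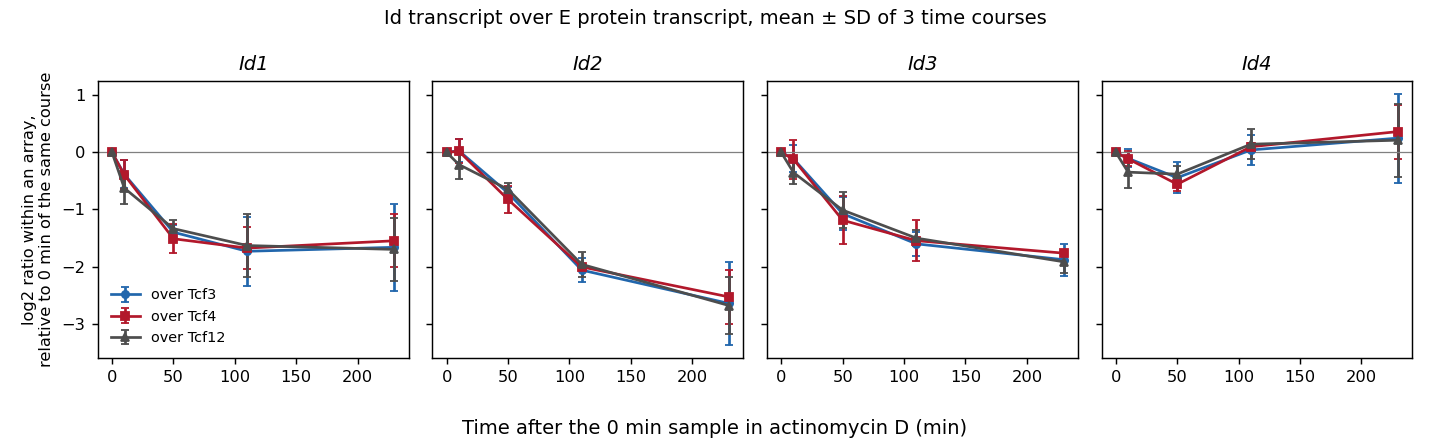
Change in the log2 ratio of each Id transcript to Tcf3, Tcf4 and Tcf12 within an array, relative to 0 min of the same time course, against time in min, as mean ± SD of 3 time courses. The ratios of Id1, Id2 and Id3 fell whichever E protein transcript was the denominator, with Id2 reaching the lowest values. Those of Id4 were lower at 50 min, from -0.38 over Tcf12 to -0.56 over Tcf4, and lay between 0.21 and 0.36 at 230 min with wide spreads.

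The inhibitors also differed among themselves in their course. The log2 ratio of Id1 to Id2 changed by -0.69, -0.65 and -0.72 by 50 min in replicates 1, 2 and 3, and by 0.80, 1.03 and 1.12 by 230 min. Id1 thus lost more of its level than Id2 by 50 min in 3 of 3 time courses. At 230 min Id1 read 2.44, 1.67 and 2.49 and Id2 2.44, 1.61 and 2.29, on arrays with medians between 1.44 and 1.72. Whether a lower limit of the signal shaped the later ratio was not tested, so that ratio is not taken to show which lost more. Both transcripts ended at a like signal near the array median, 2.20 ± 0.46 for Id1 and 2.11 ± 0.44 for Id2 (SD, n = 3) at 230 min, having begun at 13.1 ± 4.52 and 24.7 ± 7.78. The ratio of Id2 to Id3 changed by 0.36 ± 0.37 by 50 min and -0.77 ± 0.52 by 230 min on the log2 scale. Each sign was the same in 3 of 3 time courses, and the same caution applies at 230 min. The ratio of Id1 to Id3 differed in sign between time courses at 50 min and at 230 min. No test was run on these ratios between Id transcripts.

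Half-lives were taken from an exponential fitted in each time course. The fit was called reliable where the decay rate had p below 0.05 and the 95% confidence interval was narrower than 2 half-lives, in at least 2 of 3 time courses. These criteria were met by 2 of 7 members, Id2 and Id3, against 5.84% of all probe sets. The half-life of Id2 was 44.6, 64.0 and 56.0 min in the 3 time courses and averaged 54.9 ± 9.76 min (SD, n = 3), and that of Id3 was 47.1, 47.9 and 69.5 min and averaged 54.8 ± 12.7 min. Id1 gave 31.7, 71.0 and 41.3 min, averaging 48.0 ± 20.5 min, and met the criteria in replicate 2 only. These 3 did not differ beyond their spread. Without a given replicate, when both remaining time courses had to meet the criteria, 0 members met them without replicate 1, Id2 alone without replicate 2 and Id3 alone without replicate 3. When the 75th percentile divided each array, the means of Id1, Id2 and Id3 were 125, 75.6 and 102 min, and with the median 74.2, 66.6 and 76.7 min, and 1 member met the criteria under either. Among expressed probe sets with reliable fits the median half-life was 2.20 hr, with 10th and 90th percentiles of 1.33 and 3.75 hr, and 2.29% had a shorter half-life than Id2.

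For the E proteins the fitted half-lives were 5.29 ± 2.53 hr for Tcf3, 3.94 ± 0.95 hr for Tcf4 and 3.81 ± 0.85 hr for Tcf12. None met the criteria in any time course. In 7 of their 9 fits the confidence interval of the decay rate included 0, no loss, so the half-life had no upper limit. These are rough values whose order is not resolved. The shortest of the 9 E protein half-lives, 184 min for Tcf3 in replicate 2, was longer than the longest of the 9 for Id1, Id2 and Id3, 71.0 min for Id1 in replicate 2. This separation held for the plain exponential. With a constant floor added, Tcf3, Tcf4 and Tcf12 gave 43.4, 39.1 and 34.2 min in replicate 1, and 184 min or more in replicates 2 and 3. The replicate 1 values lay inside the 14.9 to 64.0 min of Id1, Id2 and Id3. Their fitted floors were 11.7, 5.64 and 10.1, beside 0 min values of 20.3, 12.3 and 18.1, whereas floors of Id1, Id2 and Id3 reached at most 3.01. Those short values thus describe an approach to a high floor, not loss of the whole signal. When the median divided each array, the means of Tcf4 and Tcf12 were 862 and 1077 min and Tcf3 decayed only in replicate 2, at 359 min. With the 75th percentile neither Tcf4 nor Tcf12 decayed in any time course, and Tcf3 only in replicate 2, at 3325 min. The Id4 half-lives of 173, 687 and 772 min had no reliable fit, and their mean of 544 min became 54.2 min with the floor and 209 min with the 5th percentile subtracted. By interpolation between sampled times, Id1 reached 50% of its 0 min level at 25.01, 49.4 and 26.0 min in replicates 1, 2 and 3. Id3 did so at 42.9, 44.4 and 59.4 min and Id2 at 51.1, 68.8 and 59.8 min, so Id2 came last in 3 of 3 time courses and Id1 first in the time courses of replicates 1 and 3. Tcf3, Tcf4 and Tcf12 first reached it at 95.2 to 107 min in replicate 1 and 166 to 196 min in replicate 2. None did so in replicate 3. The replicate 1 times rest on its 110 min array, where Tcf3, Tcf4 and Tcf12 stood at 48.5%, 43.5% and 48.4% of 0 min. At 230 min of replicate 1 they stood at 65.1%, 49.9% and 64.6%, so Tcf3 and Tcf12 were above 50% again.

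**Figure D4:**
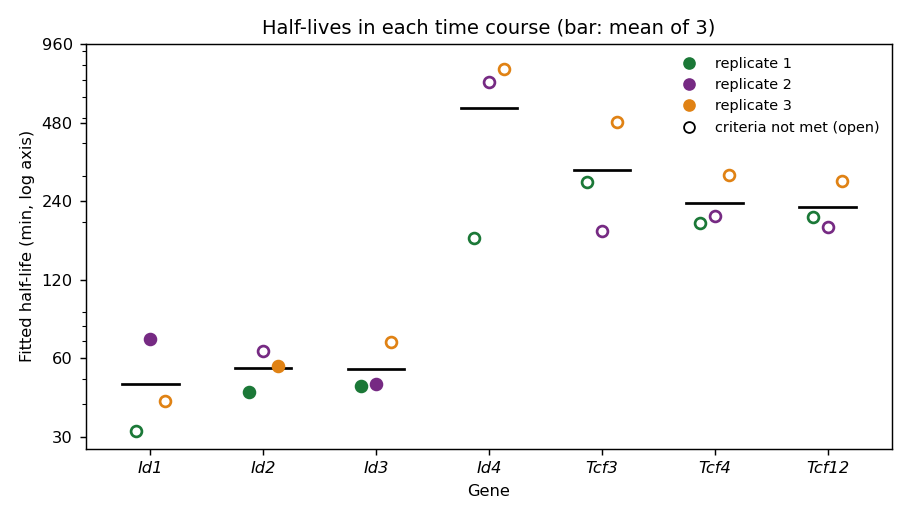
Half-life (min, log axis) fitted in each of 3 time courses for the 7 genes, from a plain exponential, with filled points for fits that met the criteria, open points for those that did not, and bars for the mean of 3. The points of Id1, Id2 and Id3 lie between 31.7 and 71.0 min, below all points of the E protein genes, which lie between 184 and 483 min.

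Other genes of the pathway were examined in 6 lists, of which 53 of 56 genes had a probe set of their own. In the trend 49 of 53 fell, 0 rose and 4 did not pass, beside the 75.8% of all probe sets that fell. Among expressed ones 39 of 39 fell, against 96.3% of expressed probe sets, so this count and those of the single lists do not set the pathway apart. With arrays divided by their median 25 of the 39 fell and 0 rose, and with the 75th percentile 19 fell and 13 rose, so the lists are best read by their slopes beside the median of -0.25 over expressed probe sets.

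Among the tissue-restricted partners of E proteins 9 of 9 expressed genes fell, their slopes having a median of -0.40. Myod1, the myogenic factor that pairs with E proteins, was steepest, going from 27.3 ± 2.74 at 0 min to 20.8 ± 2.69 at 50 min and 4.84 ± 1.80 at 230 min, with a slope of -0.66 and a fitted half-life of 91.4 ± 13.8 min that met the criteria in 1 of 3 time courses. Tal1, a haematopoietic factor, was shallowest at -0.14, and was above 0 with either other scaling (0.04 and 0.17). Among the bHLH repressors 5 of 5 expressed genes fell, with a median of -0.63. Bhlhe41, a circadian repressor, was steepest at -0.66 with a reliable half-life of 68.7 ± 14.3 min, and Hes6, an inhibitor of Hes1, shallowest at -0.26, or 0.06 with the 75th percentile.

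In BMP and Smad signalling, which drives Id transcription, 13 of 13 expressed genes fell, with a median of -0.33. Smad1, which carries the BMP signal to the nucleus, was steepest at -0.51 with a reliable half-life of 106 ± 19.98 min, and Smad9 shallowest at -0.22, or 0.10 with the 75th percentile. Among genes of Id turnover and E protein cofactors 6 of 6 expressed genes fell, with a median of -0.53. Fzr1, an activator of the anaphase-promoting complex, was steepest at -0.66 and Kat2b, an acetyltransferase, shallowest at -0.18, or 0.14 with the 75th percentile. Of the MEF2 partners 3 of 3 fell, from -0.58 for Mef2d to -0.15 for Mef2c, which was above 0 with either other scaling (0.03 and 0.16). Of the targets of E proteins in growth arrest 3 of 3 fell, with Cdkn1c, a cell cycle inhibitor, at -0.21 and Cdkn2b, another, at -0.19, both above 0 with the 75th percentile (0.11 and 0.13).

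The genes nearest to each member in their course were found by the root mean square difference of log2 change from 0 min over the 12 later arrays, among up to 9879 expressed genes. Nearest to Id1 were Hes1, an effector of Notch, at 0.26, Irf1, an interferon-induced factor, at 0.28, and Clk1, a splicing kinase, at 0.29. The distances of Id3 and Id2 from Id1 were 0.46 and 0.68. Hes1, Irf1 and Clk1 were picked as the smallest of 9878 distances, whereas Id2 and Id3 were fixed beforehand. Their lower distances therefore do not show that Id1 resembles them more than its own family. Nearest to Id2 were Nup62, a nuclear pore protein, at 0.28, Tmem11 at 0.30 and Cited2, a transcriptional coregulator, at 0.30. Nearest to Id3 were Dusp10, a MAP kinase phosphatase, at 0.19, Irf2bp2 at 0.20 and Msl2 at 0.22.

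The nearest genes of the E protein genes were Tab2 at 0.05 from Tcf12, Alad at 0.08 from Tcf3 and Eloa at 0.11 from Tcf4. Among themselves the 3 E protein genes were 0.19 to 0.26 apart, and they were 1.34 to 1.74 from Id1, Id2 and Id3. Tab2, Alad and Eloa were picked as the smallest of many distances, so they are not set against these values. Itgad was nearest to Id4, at 0.16. These distances describe the 12 later arrays, each relative to the 0 min array of its own time course.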

How the data were processed

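Total RNA from 15 samples was hybridised to Affymetrix Mouse Gene 1.0 ST arrays. The authors' deposited values are linear ratios, each probe set divided by the 5th percentile of its array; the sources used here do not give the summary method or background correction, and the number of arrays limits precision. Of 25175 probe sets, the platform annotation, which can be old, gave 1 symbol to 21044, several to 1492 and none to 2639, and 20959 were matched by gene number to the RefSeq gene table (GRCm38.p6). Samples were grouped by labelled time.

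Log2 ratios of all probe sets, without a level filter or pseudocount, were fitted with limma 3.58.1 in R 4.3.3, with the replicate number as a block, as a linear trend and as times against 0 min, with Benjamini-Hochberg adjustment over all 25175. Half-lives came from A·exp(-kt) fitted by least squares on the ratios in each time course. Python 3.11.15, numpy 2.4.6, scipy 1.17.1 and pandas 2.3.3 were used, and the fits were tested on simulated data. Alternatives covered scaling, block, filter, times, fit form and leaving out each replicate. Named genes were the 7 members, the steepest and shallowest expressed gene of each list, Myod1 and the 3 nearest genes of each member, of which only the nearest is given for Id4 and the E proteins. Members and lists were chosen with earlier results of these data known. Mef2b, Cdkn1a and Ccnb1 were not analysed here.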

Additional observations from a re-analysis of the deposited data

How the results depend on the processing

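With arrays divided by their median or by their 75th percentile, the members that fell numbered 3 in the trend, 3 at 110 min and 3 at 230 min, in place of 7, and 1 had a reliable half-life in place of 2. With the 75th percentile the slopes of Id4, Tcf3, Tcf4 and Tcf12 were 0.18, 0.083, 0.044 and 0.062 log2 per hr, their log2 changes at 110 min 0.29, 0.25, 0.20 and 0.15, and at 230 min 0.55, 0.30, 0.19 and 0.34. With the median, Id4 had a slope of 0.047 and a change of 0.088 at 230 min. Leaving out each replicate in turn gave 0 to 1 members that fell at 50 min, 4 to 7 at 110 min, and 0 to 1 with a reliable half-life. In an alternative chosen after seeing the data, which left out 1 array at 110 min (replicate 1) and 1 at 230 min (replicate 2), 1 member had a reliable half-life, Id2 at 50 min passed the threshold (adjusted p = 0.0066 in limma), and Id4 at 110 min did not (adjusted p = 0.063).

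Without the replicate block the trend called the same number of members, 7, and 19054 probe sets fell in place of 19072. Deviations from the group means correlated above 0.1 in 18 of 30 same-numbered pairs of arrays (median r 0.23) and in 11 of 60 others (median r -0.13). Same-numbered arrays thus tended to deviate together, but not every pair exceeded 0.1, so pairing was not established by that criterion. The half-life fits, percentages of the 0 min level, ratio permutations and block all take the number to mark 1 time course. All 54 refits of the 9 pairs of Id1, Id2 or Id3 over an E protein kept slopes below 0, and 51 passed the threshold. The refits reuse the same transcripts and arrays, so they are not independent of each other. For Id4, 3 of 18 refits passed, those without replicate 1, with the ratio rising (exact permutation test, adjusted p = 0.029, 0.038 and 0.011 over Tcf3, Tcf4 and Tcf12). Other probe sets of a member could not be tried, since each had 1. The Id signals at 230 min were near the array medians, and how far a further fall could be measured was not tested.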

Other observations

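The half-life of Id1 moved with the model and the scaling far more than that of Id2. It ran from 22.4 min with a constant floor added to the exponential to 125 min with arrays divided by their 75th percentile, whereas that of Id2 ran from 50.1 min with the 5th percentile subtracted to 75.6 min with the 75th percentile. Id3 lay between, from 37.6 to 102 min. With the floor the means of Id1, Id3 and Id2 were 22.4, 37.6 and 53.9 min, and with a straight line through log2 values they were 96.4, 84.2 and 61.6 min, so the order of Id1, Id3 and Id2 turned around with the form of the curve. No test of this order was run.

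The trend of Id4 was largest in replicate 1, the only time course in which Id4 exceeded the array median at 0 min, going from 3.22 to 1.47, compared with 2.08 to 1.54 in replicate 2 and 1.96 to 1.60 in replicate 3.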
